A study of Homo sapiens with 6 samples.

Results

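The response of a small cell lung cancer line to the chelator Dp44mT was taken from 4 of the 6 arrays of the series. DMS-53 cells, an established human line, were kept for 24 h in plain RPMI medium (control) or in medium with 25 µM Dp44mT, and each condition was hybridized to 2 Affymetrix U133 Plus 2.0 arrays, titled set 1 and set 2. The other 2 arrays, from cells in 250 µM desferrioxamine (DFO), entered the normalization and the estimate of spread. Nothing in the labels says whether the replicate arrays came from separate cultures, so the tests reflect the array-to-array spread alone, which may be technical, and every result refers to 1 cell line at 1 dose and 1 time. All 16868 genes that carried a single symbol and passed a filter on low values were compared. Values are normalized log2(intensity + 16), and a difference of 1 on this scale is a doubling of intensity plus 16. A gene was called when its Benjamini-Hochberg adjusted p in limma's moderated test was under 0.05.

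Dp44mT belongs to the thiosemicarbazones. It enters cells readily and chelates both iron and copper, and its copper complex can cycle between oxidation states inside lysosomes. Cells sense iron through iron-responsive mRNA elements, which stabilize the transferrin receptor mRNA when iron is scarce, and through iron-dependent dioxygenases, among them the prolyl hydroxylases that mark hypoxia-inducible factor (HIF) subunits for degradation and the JmjC histone demethylases. Ribonucleotide reductase also needs iron, which ties the supply of DNA precursors to it. Small cell lung cancer cells are neuroendocrine cells that divide fast and depend on lineage transcription factors and often on the survival protein BCL2.

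On the Dp44mT arrays 323 genes were up-regulated and 246 down-regulated as compared to control, which is 1.91% and 1.46% of the genes tested. Increases had a median of 1.69 on the log2 scale (3.23-fold), with 118 genes at or above a log2 difference of 2. Decreases had a median of −1.69 (3.22-fold), with 68 genes at or beyond 2 log2 units. Both Dp44mT arrays lay above both control arrays in 30.3% of all genes tested and below them in 33.1%, and all 569 called genes belonged to one or the other. The probe sets of genes that fell had a median control signal of 9.39, against 7.88 for those that rose and 7.73 for all genes, although signals of different probe sets are not comparable as RNA levels. When genes were divided into 4 equal groups by control signal, the group with the highest signals held 142 of the decreases and 66 of the increases, while the lowest held 2 and 56. A decrease from a low signal is limited by the floor of the scale. The control mean also enters both the grouping and the difference, so array error in control can add to this pattern. The size of that part was not tested.

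**Figure D1:**
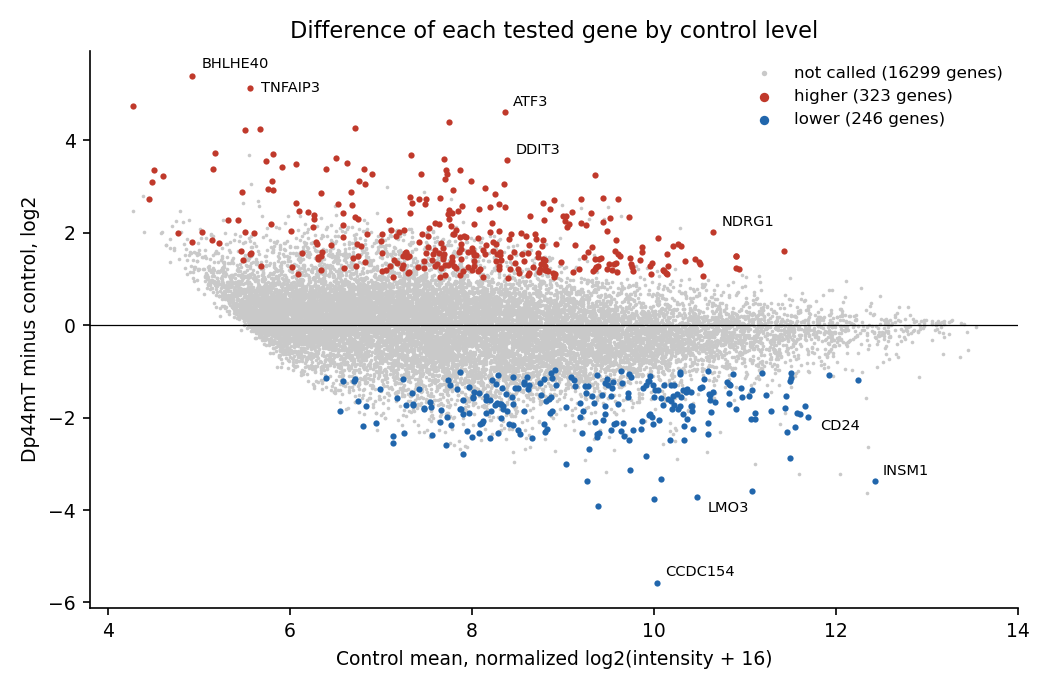
Difference between Dp44mT and control (log2, vertical axis) against the mean control level (normalized log2(intensity + 16), horizontal axis) for each tested gene. Red points are the 323 genes called higher and blue points the 246 called lower, and the blue points lie further to the right, at a median control level of 9.39 against 7.88. The control mean enters both axes.

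The calls rest on few arrays. Deposited median intensities were 88.9 and 88.8 in control, 83.6 for Dp44mT in set 1 and 49.9 for Dp44mT in set 2, and the correlation across genes between replicates, in which genes are not independent, was 0.971 for control and 0.892 for Dp44mT. No gene passed in limma without control array 1, control array 2, Dp44mT array 1 or Dp44mT array 2 (0 each, with 2069, 1800, 5444 and 2367 genes at an unadjusted p under 0.05, against 4062 with all arrays). On the values as deposited, without normalization, the median of all genes was −0.50 instead of 0.03, and 25 genes were higher and 41 lower, so that 37.9% of the calls were increases as against 56.8%. Subtracting only the array medians gave 117 higher and 186 lower genes (38.6% increases, median of all genes −0.13). Without normalization 7 of 44 HIF targets, 5 of 32 immediate early genes and 4 of 67 G2/M genes passed, against 31, 17 and 18. Differences below are relative to quantile normalized arrays.

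Set 2 held a group of genes whose Dp44mT and control arrays differed there alone. A difference within a set is the Dp44mT array minus the control array of the same number. Nothing in the labels says what a set number marks, so these are not matched pairs. A rise of at least 2 log2 units in set 2 with a difference under 0.5 in either direction in set 1 was found for 725 genes, and the reverse, a rise in set 1 alone, for 0. These genes had median levels of 7.33 and 6.07 on the control arrays and of 7.13 and 9.13 on the Dp44mT arrays. The shift was not particular to Dp44mT. On the DFO arrays the medians were 7.07 and 8.63, and 723 of the 725 genes were higher on DFO array 2 than on control array 2. Long noncoding RNAs made up 26.1% of them, against 10.3% of all genes tested. MYCN, an oncogenic transcription factor, is 1 example chosen after its values were seen: it stood at 8.16 and 6.33 in control and at 7.73 and 10.76 in Dp44mT. None of the 725 genes was called (0). The rule that picked them demands unequal differences in the 2 sets, which works against a call, so this count is no independent result. The 725 genes, out of all 16868 tested, include 5 of the 18 fibroblast markers tested. The summed normalized intensity of the 18 was 2860 and 1957 in control, 2913 and 5443 in Dp44mT and 2796 and 4718 in DFO. Endothelial markers summed to 1917 and 1607 in control, to 1943 and 3769 in Dp44mT and to 1907 and 3256 in DFO. For leukocyte markers the sums were 2442 and 2821 in control and 2406 and 3927 in Dp44mT. Smooth muscle markers had 2633 and 2398 in control and 2889 and 3535 in Dp44mT. Markers of non-neuroendocrine epithelium went the other way, from 10473 and 9817 in control to 9430 and 8515 in Dp44mT. Of the 14 endothelial markers 0 were called, as were 0 of the 18 fibroblast markers. These counts are near the background of 1.91% higher and 1.46% lower genes. In RNA from whole cultures, fewer cells of a type and less RNA per cell cannot be told apart. The part of this set 2 shift in the results was not tested. Without both chelator arrays of set 2, an alternative chosen after the data were seen, 267 of the 323 increases and 179 of the 246 decreases were still called, with the spread taken from the control arrays alone.

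**Figure D2:**
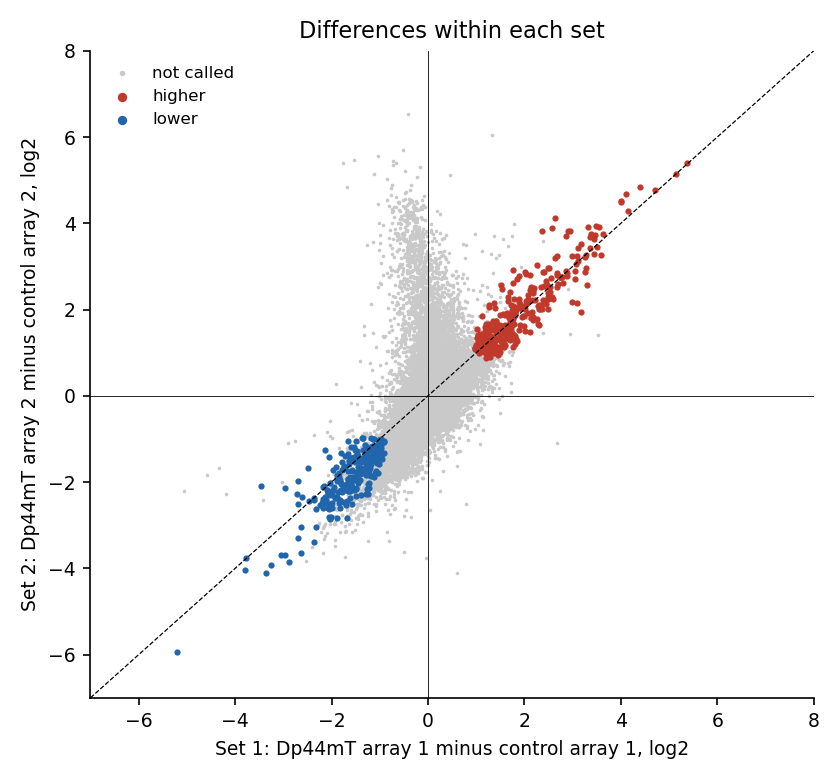
Difference between Dp44mT and control within set 1 (log2, horizontal axis) and within set 2 (log2, vertical axis), 1 point per tested gene, with the dashed line marking equal differences. Called genes (red higher, blue lower) lie along the line, which the call itself favours. A grey column of uncalled genes rises in set 2 near 0 in set 1.

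Called genes had similar differences in both sets. The call itself favours this, since it was made on the same arrays and a small spread between replicates helps a gene to pass. The median increase was 1.71 in set 1 and 1.67 in set 2. The median decrease was −1.55 in set 1 and −1.81 in set 2, and it was the larger of both in set 2 for 195 of the 246 genes.

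Several promoters of genes named below are shown first, because they carry short motifs known to be bound by the factors of the pathways described. The sequences are from RefSeq (GRCh38.p14), are written 5′ to 3′ on the strand of the gene, and lie within the 250 bases before the annotated start. Capitals mark each match on either strand in the stretch shown. The core of the HIF response element, ACGTG, is marked for ANKRD37 (chr4:185396603-185396722, plus strand) and BHLHE40 (chr3:4979187-4979306, plus strand).
ANKRD37: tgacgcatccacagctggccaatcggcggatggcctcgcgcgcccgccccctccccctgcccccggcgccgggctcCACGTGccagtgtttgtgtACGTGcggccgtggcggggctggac
BHLHE40: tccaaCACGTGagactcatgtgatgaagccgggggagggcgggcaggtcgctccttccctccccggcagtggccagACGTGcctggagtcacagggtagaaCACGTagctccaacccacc
The cyclic AMP response element TGACGTCA is marked for PPP1R15A (chr19:48872271-48872390, plus strand), and TGATGNAA, a core shared by C/EBP-ATF response elements (CARE), for ATF3 (chr1:212565157-212565276, plus strand).
PPP1R15A: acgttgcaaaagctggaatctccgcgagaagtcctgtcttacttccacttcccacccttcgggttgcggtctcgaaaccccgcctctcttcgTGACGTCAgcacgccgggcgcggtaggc
ATF3: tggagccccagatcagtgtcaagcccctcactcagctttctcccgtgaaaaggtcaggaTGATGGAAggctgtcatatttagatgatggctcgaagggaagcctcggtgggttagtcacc
A pattern of NF-kB sites, GGGNNTTTC, is marked for TNFAIP3 (chr6:137867114-137867233, plus strand) and NFKBIA (chr14:35404827-35404946, minus strand).
TNFAIP3: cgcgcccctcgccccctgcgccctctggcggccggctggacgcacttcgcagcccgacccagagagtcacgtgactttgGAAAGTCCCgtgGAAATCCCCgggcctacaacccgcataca
NFKBIA: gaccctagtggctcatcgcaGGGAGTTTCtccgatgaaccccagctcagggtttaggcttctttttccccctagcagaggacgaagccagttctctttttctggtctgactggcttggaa
The cell cycle homology region TTTGAA, found in promoters of mitotic genes, is marked for DLGAP5 (chr14:55191669-55191788, minus strand) and ASPM (chr1:197146757-197146876, minus strand), which fell.
DLGAP5: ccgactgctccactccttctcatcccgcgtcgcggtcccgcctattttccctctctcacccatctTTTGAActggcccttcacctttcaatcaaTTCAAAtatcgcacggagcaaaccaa
ASPM: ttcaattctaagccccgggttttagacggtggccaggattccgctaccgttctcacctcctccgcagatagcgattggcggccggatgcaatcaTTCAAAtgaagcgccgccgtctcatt

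Over all genes these motifs were described by shares alone. A promoter was matched for 13341 genes tested, 271 of them increases and 208 decreases. ACGTG, searched on both strands, was present in 29.2% of promoters of increases, 27.9% of decreases, 21.8% of genes tested and 18.7% of all 27305 promoters of the table. The palindrome CACGTG, which contains ACGTG, was present in 14.4%, 13.0%, 8.22% and 6.49%, in the same order. TGACGTCA was found in 5.54% of increases, 2.88% of decreases, 2.55% of genes tested and 1.77% of all promoters. TTTGAA was more frequent among decreases (14.9%) than among increases (7.01%), with 9.80% of genes tested and 13.6% of all promoters. TGATGNAA stood in 1.48% of increases, 0.481% of decreases, 1.97% of genes tested and 3.19% of all promoters. GGGNNTTTC stood in 3.69%, 3.85%, 4.33% and 4.12%, again in that order. The median GC content of these promoters was 68.4% for increases, 64% for decreases and 63.6% for genes tested. A match is a description of the letters and not a bound site.

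HIF targets outside glycolysis were the list with the largest share of increases. Of 44 tested members 31 rose and 0 fell, against 1.91% of all genes rising, and the list median was 1.72 against 0.03 for all genes. BHLHE40, a transcriptional repressor of the circadian clock, stood at 4.93 and 4.91 in control and at 10.31 and 10.32 in Dp44mT, a difference of 5.39 (SE 0.16, n = 2 arrays per group, adjusted p = 0.00452). Replicate arrays were nearly equal and the groups did not overlap, but the control signal lay near the floor, and the difference of BHLHE40 was 6.38 with a pseudocount of 1 and 4.08 with 64. ANKRD37, an ankyrin repeat protein, rose from 6.97 and 6.45 to 10.97 on both arrays, by 4.26 (19.2-fold, SE 0.24). Its 2 tested probe sets had 1.70 and 4.26, and 1 was called. PLOD2, a collagen lysyl hydroxylase, rose from 7.80 and 7.59 to 11.27 and 11.31 (12.1-fold, SE 0.17). VEGFA, the endothelial growth factor, rose from 9.58 and 9.44 to 11.72 and 11.96, and all 4 of its tested probe sets were called, with differences from 2.33 to 3.39. NDRG1, a metastasis suppressor known to respond to iron loss, rose from 10.80 and 10.51 to 12.58 and 12.76, by 2.02 (SE 0.20, adjusted p = 0.018).

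The oxygen sensors themselves were among the increases. EGLN1 and EGLN3, the HIF prolyl hydroxylases, rose by 2.20 and 2.46 (SE 0.17 and 0.31). BNIP3L and BNIP3, receptors for mitophagy, rose by 2.49 and 1.498. CITED2, which restrains HIF transcription, rose by 3.12, from 6.74 and 6.78 to 10.02 and 9.74. Of 26 genes of glycolysis and pyruvate control 8 rose and 1 fell, with a median of 0.60. PFKFB3 and PFKFB4, which make the allosteric activator of phosphofructokinase, rose by 3.07 and 2.73 (8.37-fold and 6.65-fold). The 2 tested probe sets of PFKFB4 had 0.99 and 2.73, and 1 was called. PDK4, a kinase that inhibits pyruvate dehydrogenase, went the other way, from 11.38 and 11.54 to 9.26 and 9.06 (log2 −2.30, SE 0.20, adjusted p = 0.0125), and both of its tested probe sets fell. PDK1, its paralog, rose by 1.69. Among 40 JmjC and other iron-dependent demethylases 4 rose and 0 fell. KDM3A, a histone H3K9 demethylase, rose from 9.38 and 9.33 to 12.64 and 12.56 (9.49-fold, SE 0.16), and the list median was 0.26. The 2 tested probe sets of KDM3A had 1.03 and 3.25, and 1 was called.

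**Figure D3:**
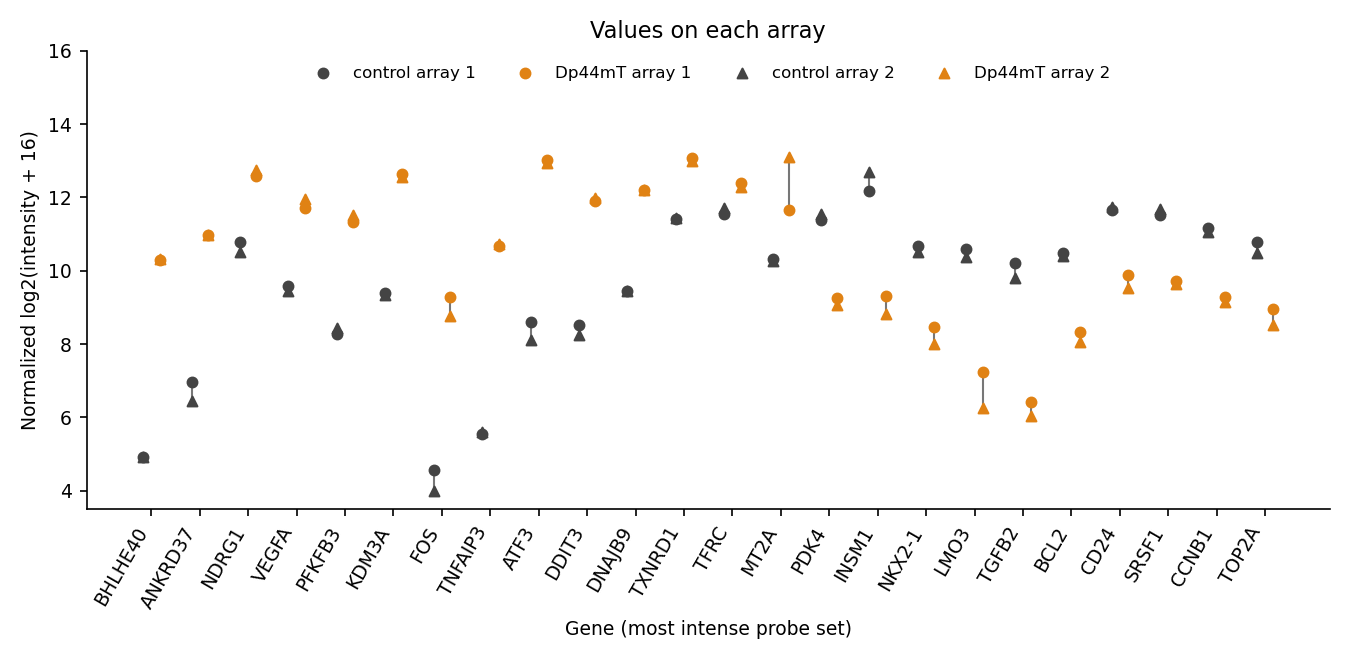
Normalized log2(intensity + 16) of 24 genes (horizontal axis) on each of the 4 arrays, circles for set 1 and triangles for set 2, dark for control and orange for Dp44mT, with a line joining the arrays of a group. The orange symbols of BHLHE40 stand at 10.31 and 10.32 above dark ones at 4.93 and 4.91, whereas those of INSM1 stand at 9.30 and 8.82 below 12.17 and 12.68.

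Of 21 tested genes of iron uptake, storage and export 0 passed in limma in either direction, where 1.91% of all genes were higher and 1.46% lower, so a count of 0 is near the background, and 3 were higher with limma-trend, with a list median of −0.05, 0.24 within set 1 and −0.11 within set 2. TFRC, the transferrin receptor, was the gene named in the study's design text as iron-responsive. It stood at 11.55 and 11.71 in control and 12.38 and 12.28 in Dp44mT, so the groups did not overlap, but the difference of 0.70 (SE 0.17) did not pass (adjusted p = 0.0909). The 4 tested probe sets of TFRC ranged from −0.66 to 1.28, and 1 was called. NCOA4, the receptor for autophagy of ferritin, had a difference of 0.77 (adjusted p = 0.0768). None of 15 genes of copper handling passed (0). The copper exporter ATP7B had a difference of −1.07 (adjusted p = 0.079), from 8.01 and 8.13 to 7.27 and 6.72. Of 29 metallothionein and zinc transport genes only MT3 was called, with a rise of 1.49. MT2A, a metal-binding metallothionein, was at 10.32 and 10.26 in control and at 11.66 and 13.10 in Dp44mT. Both treated arrays were above both controls, yet they differed from each other by more than 1 log2 unit, and the adjusted p was 0.116. MT1X showed the same spread, at 11.21 and 12.81 against 9.73 and 9.55. In the making of haem and iron-sulfur clusters 2 of 32 genes rose: ALAS1, the first enzyme of haem synthesis, by 1.28, and ISCA1, a cluster carrier, by 1.27.

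Immediate early genes, which are transcribed within minutes of a stimulus, formed the second group of increases at 24 h. Of 32 immediate early and AP-1 genes 17 rose and 0 fell, with a median of 1.63. FOS stood at 4.56 and 4.0005 in control, at or near the floor of the scale, and at 9.28 and 8.77 in Dp44mT. Its difference was 4.74 with the pseudocount of 16, 7.43 with a pseudocount of 1 and 3.08 with 64, so only its direction is firm. EGR1, a zinc finger factor of the same class, rose from 5.93 and 6.20 to 9.44 and 9.65 (11.2-fold, SE 0.20). Its 3 tested probe sets ranged from 0.65 to 3.48, and 2 were called. JUN, the partner of FOS, rose from 10.25 and 10.29 to 11.97 and 12.09, and all 4 of its tested probe sets were called. Of 24 KLF and SP factors 4 rose: KLF6 by 2.97, KLF4 by 2.56, KLF5 by 2.48 and KLF10 by 2.25.

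Some inhibitors of the same signalling pathways were also among the increases. Of 31 MAP kinase and receptor feedback genes 9 rose and 0 fell, with a median of 0.38. DUSP5, a nuclear phosphatase of ERK, rose from 6.81 and 6.44 to 10.16 and 10.11 (11.4-fold), DUSP1 by 2.71 and DUSP10, which acts on JNK and p38, by 2.35. ERRFI1, an inhibitor of the EGF receptor, rose by 2.63, as did HBEGF, a ligand of that receptor, by 2.33. Of 28 NF-kB feedback and cytokine genes 8 rose and 0 fell, with a median of 0.95. TNFAIP3, which restrains NF-kB by editing ubiquitin chains, rose from 5.54 and 5.59 to 10.69 and 10.73, by 5.14 (SE 0.19), or by 5.68 with a pseudocount of 1 and 4.17 with 64. NFKBIA, the inhibitor IkB-alpha, rose from 8.03 and 8.37 to 11.20 and 10.30, by 2.56 (SE 0.36). Its 2 tested probe sets had 1.35 and 2.56, and 1 was called. Interferon and antigen presentation genes gave 4 increases among 40: IRF7, IRF1, ISG20 and GBP2, by 2.63, 2.42, 2.00 and 1.76. Of 32 genes of Notch signalling HEY1, a repressor that Notch induces, rose by 2.65, while the ligand gene JAG2 and the Notch-modifying enzyme gene LFNG fell by 1.17 and 1.57. That is 3.1% of the Notch list higher and 6.25% lower, against 1.91% and 1.46% of all genes.

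Genes of the stress responses of translation and of the endoplasmic reticulum were among the increases. The list for ATF4 and amino acid starvation had 37 tested genes, of which 13 were higher and 0 lower (median 0.86). ATF3, a stress-induced repressor, rose from 8.62 and 8.11 to 13.01 and 12.95, and DDIT3 (CHOP), a factor of prolonged endoplasmic reticulum stress, from 8.53 and 8.24 to 11.91 and 11.99. PPP1R15A (GADD34), which directs the phosphatase that restarts translation, rose from 7.37 and 7.31 to 10.998 and 11.06 (12.9-fold, SE 0.21). The treated arrays of these 3 genes differed from each other by less than 0.1. The mRNA of ATF4 itself had a difference of 0.53, or −0.0098 without normalization, and did not pass (adjusted p = 0.136). TRIB3, a pseudokinase that feeds back on ATF4, rose by 2.74, SLC3A2, the heavy chain of amino acid exchangers, by 2.37, and CHAC1, which degrades glutathione, by 2.10. None of 18 cytosolic aminoacyl-tRNA synthetases passed (0), with TARS1 nearest at 0.97 (adjusted p = 0.0671). A count of 0 of 18 is near the background of 1.91% higher and 1.46% lower genes.

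Of 36 genes of the unfolded protein response 8 rose and 0 fell, with a median of 0.64, while 0 passed without normalization and 3 with array medians subtracted. They included both kinase sensors, ERN1 (IRE1) by 2.28 and EIF2AK3 (PERK) by 2.12. The 2 tested probe sets of ERN1 had 0.97 and 2.28, and 1 was called. DNAJB9, a chaperone of the endoplasmic reticulum, rose from 9.44 on both control arrays to 12.19 on both treated ones, and all 3 of its tested probe sets were called. Among heat shock proteins and co-chaperones 2 of 39 rose (DNAJB2 by 1.55 and BAG3 by 1.22), 1 fell, the mitochondrial chaperonin gene HSPE1 by 1.20, and the median was 0.11. That is 5.13% higher and 2.56% lower, against 1.91% and 1.46% of all genes. The only probe sets of BAG3 and of HSPE1 were not called in the fit of all probe sets. Of 32 NRF2 targets, the genes of thiol and xenobiotic metabolism, 8 rose and 0 fell, with a median of 0.63 (0.89 in set 1 and 0.45 in set 2). TXNRD1, thioredoxin reductase, rose from 11.42 and 11.45 to 13.08 and 13.01, by 1.61 (SE 0.18, adjusted p = 0.0231). SRXN1, sulfiredoxin, rose from 9.89 and 9.84 to 11.53 and 11.38, and GCLM and GCLC, the subunits of glutamate-cysteine ligase, by 1.22 and 1.88. HMOX1, haem oxygenase, was at 5.93 and 6.005 in control and at 7.25 and 8.32 in Dp44mT, and was not called (adjusted p = 0.097). With no normalization, or with the array medians subtracted, 0 and 1 NRF2 targets passed in limma.

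Growth arrest and death genes moved in both directions. Of 34 p53 targets and GADD45 genes 7 rose and 0 fell, and their median was 0.41, or −0.10 without normalization, where the median of all genes was −0.50. GADD45B rose by 4.24 and GADD45A by 1.49, and SESN2, a stress-induced inhibitor of mTORC1, by 2.92. CDKN1A, the cyclin-dependent kinase inhibitor p21, was at 8.67 and 8.63 in control and 9.83 and 10.72 in Dp44mT, and did not pass (adjusted p = 0.0874). TNFRSF10B, death receptor 5, rose by 2.30, and its 3 tested probe sets agreed to within 0.0861. In the BCL2 family, the BH3-only genes PMAIP1 (NOXA) and BCL2L11 (BIM) rose by 1.71 and 1.44. BCL2, which opposes them, fell from 10.47 and 10.40 to 8.34 and 8.06 (4.72-fold, SE 0.19, adjusted p = 0.0124). Only 1 of the 4 tested probe sets of BCL2 was called, and they ranged from −2.24 to 0.53. Of 47 autophagy and lysosome genes MAP1LC3B and GABARAPL1, proteins of the autophagosome membrane, and the cargo receptor SQSTM1 rose by 1.54, 1.34 and 1.24, and 44 did not pass. The increases were 6.38% of that list, against 1.91% of all genes. The 5 tested probe sets of SQSTM1 ranged from −1.05 to 1.59, and 1 was called.

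**Figure D4:**
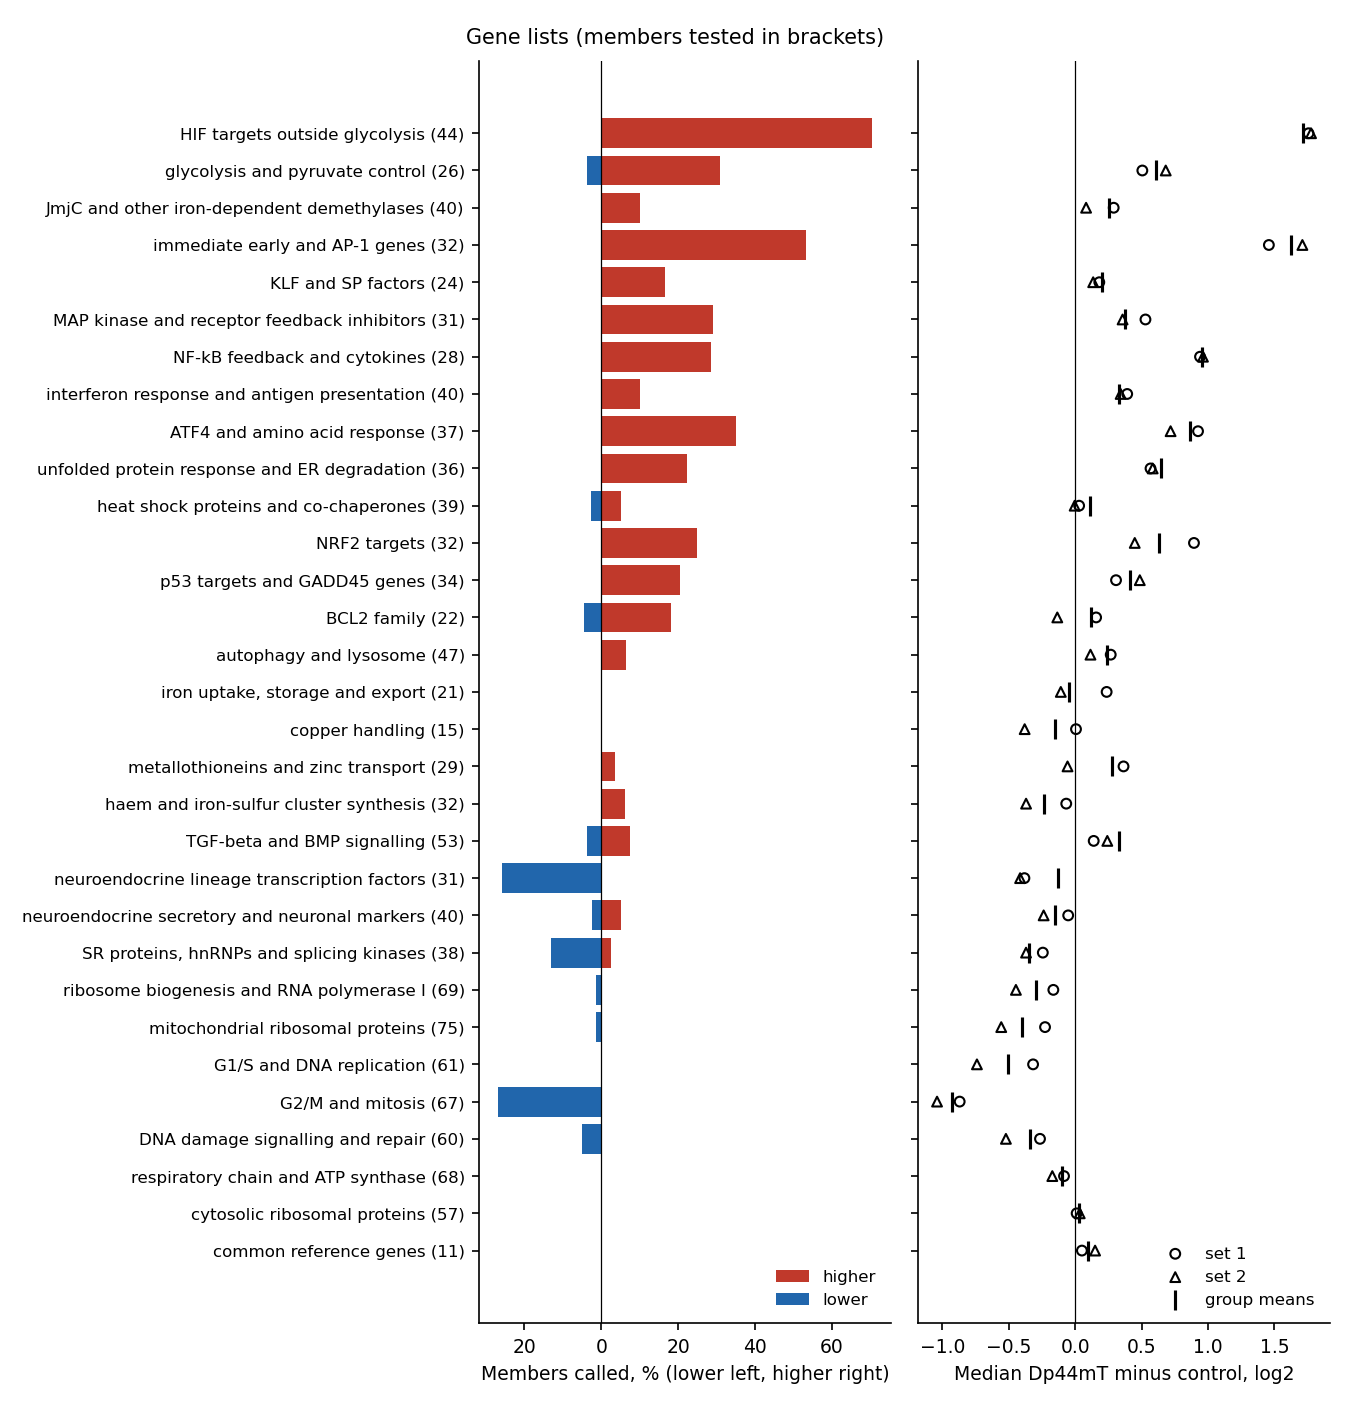
Left, share of tested members called higher (red, to the right) and lower (blue, to the left) in 31 gene lists, with the number tested in brackets (%, horizontal axis). Right, list medians of the Dp44mT minus control difference (log2) in set 1 (circles), in set 2 (triangles) and of the group means (bars), running from 1.72 for HIF targets to −0.93 for G2/M and mitosis genes.

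The list of neuroendocrine lineage transcription factors held several decreases. Of 31 tested 8 fell and 0 rose, against 1.46% of all genes falling, while the list median was only −0.13. INSM1, a zinc finger factor of neuroendocrine differentiation, fell from 12.17 and 12.68 to 9.30 and 8.82 (10.3-fold, SE 0.27). MYCL, an oncogenic transcription factor amplified in some small cell lung cancers, fell from 10.41 and 10.25 to 7.80 and 7.92, with −0.50 at its other probe set. NKX2-1 (TTF-1), a lung lineage factor, fell from 10.68 and 10.51 to 8.47 and 8.02, by 2.35 (SE 0.24, adjusted p = 0.0182). The genes beside it on the chromosome were lower as well, as seen after the values were examined: SFTA3 fell by 2.21 and the antisense RNA NKX2-1-AS1 by 1.65. Whether the probes of these neighbouring and overlapping transcripts detect each other was not tested. LMO3, a LIM-domain cofactor, fell by 3.72, with −0.92 at its other tested probe set. PROX1, SOX2, SOX4 and NEUROG3 fell by 2.34, 1.72, 1.52 and 1.20. Secretory and neuronal markers were mixed: NPTX1, a neuronal pentraxin, fell from 10.92 and 11.25 to 7.67 and 7.32, the synaptic protein SNAP25 and the enolase ENO2 rose by 1.11 and 2.03, and 37 of 40 did not pass. The summed intensity of 16 neuroendocrine identity genes was 52391 and 55030 in control and 45466 and 42703 in Dp44mT.

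Other decreases included some genes of ligands and surface proteins, but lists of such genes went both ways. Of 53 genes of TGF-beta and BMP signalling 2 fell and 4 rose. Of 60 semaphorins, plexins, ephrins and ephrin receptors 2 fell and 3 rose. Of 51 EGF, FGF and VEGF ligands and receptors 0 fell and 2 rose. Of all genes 1.46% fell and 1.91% rose. TGFB2, a transforming growth factor, fell from 10.21 and 9.80 to 6.43 and 6.04 (13.7-fold, SE 0.37), and 3 of its 4 tested probe sets were called. TGFBI, a matrix protein first found as a target of that ligand, rose by 2.89. CD24, a glycosylated surface antigen, fell from 11.65 and 11.74 to 9.88 and 9.53, and all 6 probe sets fell, by differences from −2.57 to −1.76. AMIGO2, a cell adhesion protein, fell by 3.33, and SEMA4C, a semaphorin, by 2.33. Of 49 genes of Wnt signalling 3 fell: the frizzled-degrading ligase ZNRF3 by 1.91, the transcription factor TCF7L2 by 1.30 and the receptor FZD6 by 1.26. In the fit of all probe sets none of the 6 of TCF7L2 was called, with differences from −1.45 to −0.22. The largest decrease was that of CCDC154, from 10.01 and 10.06 to 4.80 and 4.12, a value that was −7.57 with a pseudocount of 1 and −3.96 with 64. OR51E2, an olfactory receptor gene also known in prostate, fell by 3.92 and in all 3 of its probe sets.

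Mitotic genes were the list with the most decreases among those described. The G2/M list had 67 tested genes, of which 18 were lower and 0 higher, 64 had a negative difference, and the list median was −0.93, with −0.87 for set 1 and −1.04 for set 2. CCNB1, cyclin B1, went from 11.17 and 11.05 to 9.28 and 9.14, by −1.90 (SE 0.18, adjusted p = 0.0167). TOP2A, topoisomerase II, fell from 10.78 and 10.49 to 8.96 and 8.53, and KIF14, a kinesin of cytokinesis, from 10.07 and 9.76 to 7.45 and 6.71. The spindle genes ASPM and DLGAP5 fell by 2.48 and 2.27, and MKI67, the proliferation antigen Ki-67, by 1.56. The 3 tested probe sets of ASPM ranged from −2.48 to −0.86, and 1 was called. With a pseudocount of 1, 6 of the 67 passed. Genes of G1/S and DNA replication had a median of −0.51 (−0.32 and −0.74 in the sets), and 0 of 61 passed in limma. That count is near the background of 1.91% higher and 1.46% lower genes. RRM2, the iron-dependent subunit of ribonucleotide reductase, stood at 11.20 and 11.17 in control and 10.29 and 10.42 in Dp44mT, a difference of −0.84 (SE 0.16, adjusted p = 0.0646). Of 60 genes of DNA repair FANCF, PALB2 and PARP1 fell, by 1.85, 1.34 and 1.04.

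RNA processing was represented by splicing factors. Of 38 SR proteins, hnRNPs and splicing kinases 5 fell and 1 rose, with a median of −0.35. SRSF1, an SR protein, fell from 11.53 and 11.68 to 9.72 and 9.63 (3.81-fold), HNRNPA0 from 11.06 and 11.07 to 9.12 and 8.97, and TRA2B by 1.75. CLK3, a kinase of SR proteins, rose by 1.76. The 7 tested probe sets of SRSF1 ranged from −2.09 to −0.18, and 3 were called. PRMT6, an arginine methyltransferase of histones, fell by 3.14 and was the 1 gene called of 11 in its family. RRS1, a ribosome assembly factor, fell by 2.39 as the only one of 69 genes of ribosome biogenesis (median −0.29). That is 1.45% of the list, against 1.46% of all genes lower. Cytosolic ribosomal proteins had a median of 0.03 with 0 of 57 called, common reference genes 0.10 with 0 of 11, and the respiratory chain −0.10 with 0 of 68. Mitochondrial ribosomal proteins had a median of −0.40, and 1 of 75, MRPL51, fell. The counts of these last 4 lists are near the background of 1.91% higher and 1.46% lower genes.

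Long noncoding RNAs made up 18 of the 246 decreases and 4 of the 323 increases, with 1742 of them tested. Of the 1203 named as long intergenic or antisense RNAs, 0.998% were lower and 0.166% higher, against 1.46% and 1.91% of all genes. LINC00667 fell from 10.47 and 10.19 to 8.42 and 7.89. Among the long noncoding RNAs that rose was MIR210HG, the host transcript of the hypoxia-induced miR-210, from 5.21 and 4.005 to 7.79 and 7.88 (log2 3.23, SE 0.41), which was chosen after its values were seen and whose control values lie near the floor. The median gene span was 20.2 kb for decreases, 29.0 kb for increases and 26.7 kb for all genes tested. Spans over 100 kb were held by 8.94% of decreases, 18.9% of increases and 17.6% of all genes tested.

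Other groups were picked out after the values were seen and are given as examples only. Increases included some receptors of the tumour necrosis factor family, with TNFRSF12A (the receptor of TWEAK) going from 6.78 and 6.86 to 10.14 and 10.27 and TNFRSF21 (death receptor 6) up by 2.22. TNFRSF9 was at 7.87 and 9.20 against 5.24 and 5.08. Increases linked to the circadian clock, beside BHLHE40, included NFIL3 by 2.73, CIART by 2.62, PER2 by 1.98 and BMAL1 by 1.22. ANXA2, annexin A2, and its partner S100A10 rose by 2.19 and 1.34. Chromatin enzymes HDAC1 and DNMT3B fell by 1.55 and 2.00, and MAT2A, which makes the methyl donor S-adenosylmethionine, by 1.79.

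Probe sets of the same gene were compared to see which calls rest on a single one. At the level of 32242 probe sets, 514 were higher (1.59%) and 336 lower (1.04%). Of the 323 genes called higher, 208 had more than 1 tested probe set. All of them were called in 57 of these genes, only 1 in 88, and in 33 at least 1 had the opposite sign. Of the 246 genes called lower, 135 had several probe sets, with all called in 22, only 1 in 69 and an opposite sign in 32. No gene had probe sets called in both directions (0). For 29 of the genes called higher and 44 of those called lower, no probe set was called in the fit of all probe sets. A further 69 genes were higher and 79 lower only through a probe set other than the most intense. RIT1, a relative of Ras, rose by 3.16, and its 5 tested probe sets gave 2.78 to 3.16. Among called genes with 3 or more tested probe sets GADD45B had the widest range, from 0.70 to 5.02 over 4 probe sets. ELF3, an epithelial transcription factor, ran from −1.46 to 1.71, so the mean of its probe sets had the opposite sign to the reported value.

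**Figure D5:**
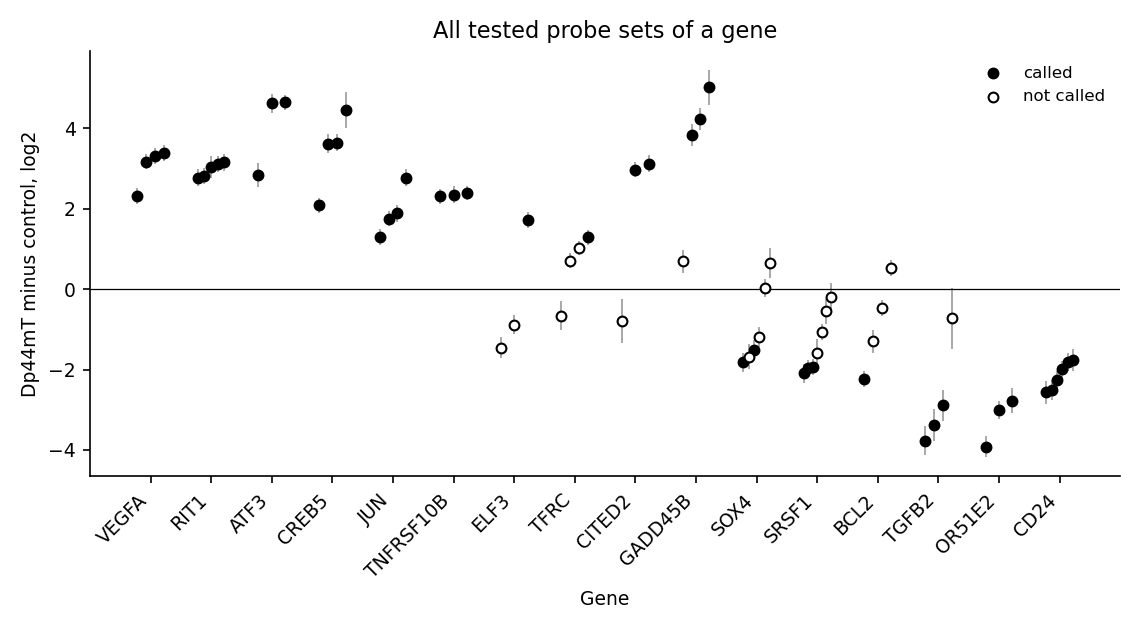
Difference between Dp44mT and control (log2, vertical axis) of every tested probe set of 16 genes (horizontal axis), with standard errors as lines, filled points called and open points not called. All 5 probe sets of RIT1 lie between 2.78 and 3.16, while those of ELF3 run from −1.46 to 1.71.

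DFO was set beside Dp44mT at its own dose of 250 µM, and both were compared with the same control arrays, so their differences are not independent. DFO gave 175 higher genes (1.04%) and 10 lower ones (0.0593%). Tested directly, 0 genes differed between Dp44mT and DFO in limma (0% of 16868, with 718 at an unadjusted p under 0.05), which does not show that the compounds act alike. The median of HIF targets was 1.72 in Dp44mT and 1.81 in DFO, and that of NRF2 targets 0.63 and 0.19. The following genes were chosen for unequal values, after these were seen. SRXN1 had a difference of 1.59 in Dp44mT and 0.09 in DFO, OSGIN1, a stress-induced growth inhibitor, 2.88 and 1.15, and MT2A 2.10 and 0.36. TGFB2 had −3.77 in Dp44mT and −1.58 in DFO, BCL2 −2.24 and −0.88, and SOX2 −1.72 and −0.42. RRM2 had −0.84 and 0.30, and ATP7B −1.07 and 0.34. Set directly against DFO, Dp44mT differed by 1.502 (SE 0.19) in SRXN1 and by −2.19 (SE 0.37) in TGFB2. The adjusted p of Dp44mT against DFO was 0.922 for each of these 8 genes.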

How the data were processed

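The authors deposited linear intensities per probe set. The submitters' processing notes name Affymetrix Expression Console 1.1. The summarization and normalization behind them are not given in the sources used here. Per the labels, total RNA was isolated in TRIzol and carried a biotin label. A pseudocount of 16 was added to the deposited intensities, log2 was taken, and the 6 arrays were quantile normalized. Of 54675 probe sets, 41097 carried 1 gene symbol in the platform annotation, 1801 several and 11777 none. Each gene was represented by its most intense probe set, and genes with a mean under the 25th percentile (5.55) were left out. Group means were compared with limma 3.58.1 in R 4.3.3, two-sided. All 3 groups shared the estimate of variance, on 3 residual degrees of freedom plus 2.22 from the prior. The p-values and intervals thus assume independent arrays and an equal spread in all groups. Deviations in set 1 correlated across genes at 0.843 between DFO and Dp44mT, and replicates at 0.971 in control and 0.892 in Dp44mT. Neither assumption can be taken as met. Half-widths of 95% intervals had a median of 0.64, and the 2 arrays per group limit the precision. Exact permutation of so few arrays cannot reach the threshold and was not used. Genes were named by rule: the 15 largest increases and decreases, by group means and by the smaller within-set difference, up to 4 called members of each list (or 2 with the smallest p), anchor genes, and called genes with 3 or more probe sets that all passed or ranged most widely. Other list members and the examples so described were chosen after their values were seen. Comparison, lists and rule were chosen with earlier results of these data known, so they give no independent support. Lists share some genes.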

Additional observations from a re-analysis of the deposited data

Results flagged for a closer look

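Probe sets without a usable gene name were outside the comparison of genes. In a limma fit over all probe sets above the filter, 7244 with no symbol were tested, of which 40 were higher and 23 lower in Dp44mT than in control (0.87%). Of 1470 with several symbols, 5 were higher and 10 lower (1.02%). They were picked out because they lie in data that the report does not use, and 1.84% of the probe sets with a single symbol passed in the same fit. With 2 arrays per group no single array could be tested as an outlier.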

How the results depend on the processing

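Under the alternatives, refitted in limma, the counts of higher and lower genes (323 and 246) moved by over 1.5 times under several of them. Leaving out 1 array gave from 0 to 215 higher and from 0 to 188 lower genes, and from 0 to 406 higher and from 0 to 428 lower probe sets. The model then assumes that the lone array varies like the other groups. Without normalization 25 genes were higher and 41 lower (23 and 27 probe sets, against 514 and 336), and with array medians subtracted 117 and 186 (189 higher probe sets). Cyclic loess gave 650 and 679, limma-trend 580 and 684, array weights 587 lower genes, and a fit on the 4 arrays alone 215 higher. A pseudocount of 1 gave 140 lower genes and 152 lower probe sets, a pseudocount of 64 gave 475 lower genes, and the 50th percentile filter 581 lower probe sets. Without both chelator arrays of set 2 there were 469 lower genes. Set numbers were not taken to pair control with Dp44mT: deviations from the group mean in set 1 correlated across genes at −0.353 between them, whereas those of DFO and Dp44mT correlated at 0.843. The replicate block gave 389 higher and 520 lower genes and 749 and 1148 probe sets, and crossing its numbers for control, chosen after the data were seen, gave 1196 and 1562 genes. The cause of these movements was not tested. No gene differed between Dp44mT and DFO under any alternative run (0, with 100 to 2256 at an unadjusted p under 0.05). The difference of ATF4, not called, turned to −0.0098 without normalization, and that of ELF3 to −0.21 with the mean of its probe sets.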
